A study of Mus musculus and Bos taurus with 6 samples.

Results

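MiR-21 is a microRNA (miRNA) whose hairpin precursor, mir-21, gives rise to 2 mature strands, miR-21-5p and miR-21-3p. The members were found by name in the lists of counted miRNA. They were mmu-miR-21a-5p and mmu-miR-21a-3p among the 1750 miRNA of the mouse list, and both arms of bta-miR-21 among the 1539 of the bovine list, that is 4 of 3289 entries. Small RNA was sequenced in 6 libraries of lactating mammary gland, in 3 groups of 2. The mouse group was total small RNA of whole glands of FVB/N mice at day 12 of lactation. The AGO2 group was small RNA bound to Argonaute 2, pulled down from FVB/N glands of the same day with a monoclonal antibody against AGO2. The bovine group was total small RNA from biopsies of Holstein cows in mid-lactation on a hay-based, low forage diet with a 46:54 ratio of forage to concentrate, and each library was a pool of 2 cows. By the study's text the cows were multiparous and the biopsies came from the udder, while the mouse glands were abdominal, with the lymph node removed. Species, parity, tissue sampling, RNA kit and pooling changed together between the bovine and mouse groups and cannot be told apart. The mouse and AGO2 glands came from 2 primiparous mice in all, so by the study's text these groups shared animals. Which mouse each library came from was not given in the sources used here.

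An miRNA is cut from a hairpin as a short duplex. As a rule, the guide strand is kept in an Argonaute protein, where bases 2 to 8, the seed, pair with target messenger RNA, and the passenger strand is mostly lost. The guide strand of mir-21 is the 5p strand. MiR-21-5p is among the abundant miRNA of many tissues, rises in many tumours and inflamed tissues, and is known to repress mRNA of growth-restraining genes such as Pdcd4. In mouse, the hairpin lies at chr11:86584067-86584158 on the minus strand (GRCm38, RefSeq). In the GENCODE M21 annotation this is within exon 12 of Vmp1, the last exon of that transcript, and within its 3′ UTR on the same strand. Vmp1 encodes a membrane protein needed for autophagy.

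The mature sequences are shown since the counts of both species rest on them and since they are not annotated alike. Capitals mark the seed, T stands for U, and the letters are those of the deposited lists; the 3 mouse sequences were the same in the RefSeq table.
mmu-miR-21a-5p: tAGCTTATcagactgatgttga
bta-miR-21-5p: tAGCTTATcagactgatgttgact
mmu-miR-21b-5p: tAGTTTATcagactgatatttcc
mmu-miR-21a-3p: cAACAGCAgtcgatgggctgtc
bta-miR-21-3p: aACAGCAGtcgatgggctgtct

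The 5p strands of mouse and cow were identical over the 22 nt of the mouse sequence, and the bovine entry ran 2 nt further at its 3′ end. They shared the seed AGCTTAT. The 3p strands shared 21 nt, but the bovine entry started 1 nt later, so the annotated seeds were AACAGCA in mouse and ACAGCAG in cow. Apart from miR-21 itself, 0 miRNA of either list had any of these 3 seeds. MiR-21b, whose hairpin lies on chromosome 3, differs from miR-21a-5p within the seed by C4T, counted from 1 at the 5′ end of miR-21a-5p. It was practically not detected, with 0 reads in both mouse libraries and 1 read in each AGO2 library. A count of 0 allows up to 0.323 and 0.357 RPM (reads in 1000000 counted reads) in mouse libraries 1 and 2.

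Libraries held between 3909166 and 10613807 counted reads, the AGO2 libraries having the fewest. Replicates of a mouse group could differ widely. Among miRNA at 100 RPM or more in at least 1 library of the group, 25.7% differed by over 2-fold between the mouse libraries, 27.5% between the AGO2 libraries and 1.16% between the bovine libraries. Each bovine library pooled 2 cows, so the bovine spread is not that between single animals. The labelled tissue held its epithelial markers: the 6 miRNA fixed for epithelium (miR-200a/b/c-3p, miR-141-3p, miR-429-3p and miR-205-5p) were detected in every library.

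The guide strand, miR-21-5p, was abundant in all libraries and higher in cow than in mouse. It was counted 54987 and 107545 times in mouse libraries 1 and 2, which was 5913 and 12815 RPM. In the AGO2 libraries it reached 10282 and 8088 RPM, from 40193 and 40773 counts. In the bovine libraries it reached 44399 and 60064 RPM, from 417459 and 637506 counts. The AGO2 values lay between those of the mouse libraries, and both bovine values lay above all mouse and AGO2 values. By rank, miR-21-5p was 33rd and 18th of all miRNA in the mouse libraries, 17th and 18th in the AGO2 libraries, and 5th and 4th in the bovine libraries. It took 0.591% and 1.28% of the counts in mouse, 1.03% and 0.809% with AGO2, and 4.44% and 6.01% in cow. The mouse libraries differed by 2.17-fold, more than the AGO2 libraries (1.27-fold) or the bovine libraries (1.35-fold), and 21.1% of the mouse miRNA above the same level differed at least as much between the mouse libraries.

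The passenger strand, miR-21-3p, was rare in every library, and its groups stood in another order. It was counted 47 and 69 times in the mouse libraries, 117 and 120 times in the AGO2 libraries, and 44 and 45 times in the bovine libraries. These counts were 5.05 and 8.22 RPM in mouse, 29.9 and 23.8 RPM with AGO2, and 4.68 and 4.24 RPM in cow. Both AGO2 values lay above all others, and both bovine values lay below the mouse values. The bovine values and that of mouse library 1 were within each other's exact 95% intervals for counting error, which ran from 3.71 to 6.72 RPM in mouse library 1, from 3.40 to 6.28 RPM in bovine library 1 and from 3.09 to 5.67 RPM in bovine library 2. Intervals cover counting error only. The rank of the 3p strand was 335th and 301st in mouse, 228th and 257th with AGO2, and 370th and 377th in cow.

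**Figure D1:**
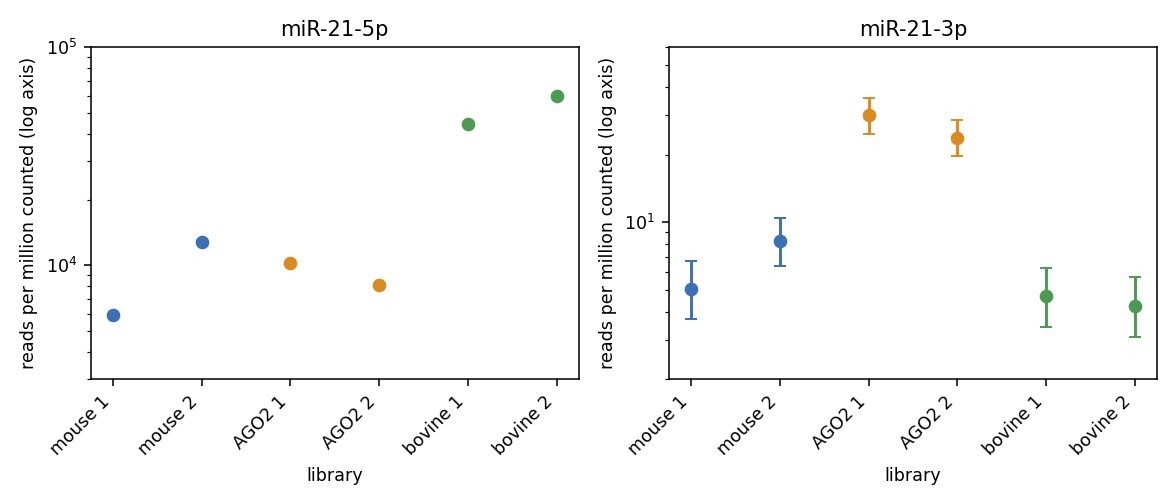
Level of miR-21-5p (left) and miR-21-3p (right) in RPM, on log axes, in each of the 6 libraries. Points are libraries, and bars are exact 95% intervals for counting error, which are smaller than the points for the 5p strand; the 5p strand was at 44399 and 60064 RPM in the bovine libraries, and the 3p strand at 29.9 and 23.8 RPM in the AGO2 libraries.

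The share of the 3p strand in all mir-21 counts is a measure within a library, which normalisation between libraries does not touch. It was 0.0854% and 0.0641% in mouse libraries 1 and 2. It was 0.290% and 0.293% in the AGO2 libraries. It was 0.0105% and 0.00706% in the bovine libraries. The groups did not overlap, which was common among hairpins. The share of the strand less used in mouse was higher in both AGO2 than in both mouse libraries for 35.5% of 138 hairpins. It was lower in both bovine than in both mouse libraries for 36.4% of 22. Within each group the exact 95% binomial intervals for mir-21 overlapped: they ran from 0.0628 to 0.114% and from 0.0499 to 0.0811% in mouse, from 0.240 to 0.348% and from 0.243 to 0.351% with AGO2, and from 0.00766 to 0.0141% and from 0.00515 to 0.00944% in cow. Put as a ratio, there were 1170 and 1559 reads of the guide strand for each read of the passenger strand in mouse, 344 and 340 with AGO2, and 9488 and 14167 in cow.

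**Figure D2:**
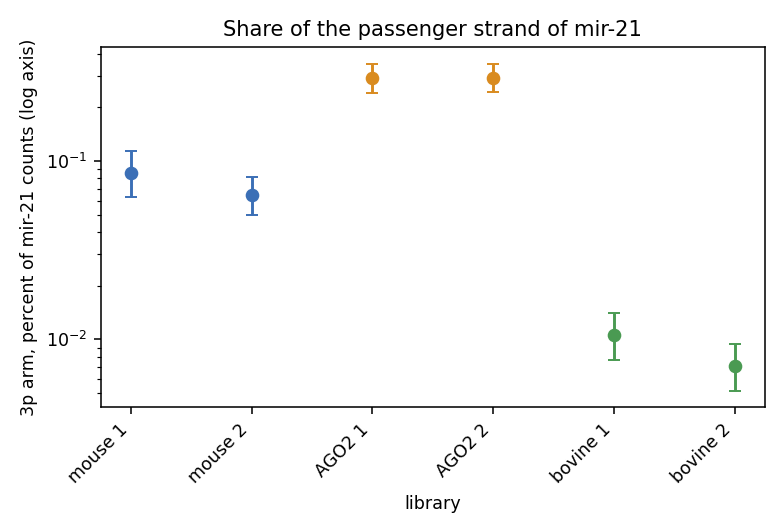
Percent of mir-21 counts that lay on the 3p (passenger) strand in each of the 6 libraries, on a log axis. Points are libraries and bars are exact 95% binomial intervals; the AGO2 libraries were at 0.290% and 0.293%, the mouse libraries at 0.0854% and 0.0641%, and the bovine libraries at 0.0105% and 0.00706%.

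Comparing AGO2 with mouse asks which miRNA are bound to the effector protein in proportion to their level in the gland. None of the libraries was a control pull-down, so unspecific background was not measured. The paper proposes that less RNA in the pulled-down samples explains some of the difference between the lists. For miR-21-5p the mean was 9364 ± 4881 RPM in mouse and 9185 ± 1551 RPM with AGO2 (SD, n = 2 each), a ratio of 0.981. In edgeR's quasi-likelihood test over the 299 miRNA that passed the study's own filter on the highest count, its log2 change was 0.10 ± 0.47 (SE; adjusted p = 0.888), with a 95% interval from -0.89 to 1.09. An absence of change is not shown by this, since the interval spans a 2-fold change upwards. The same test called 83 miRNA, 27.8% of those tested. The sign was negative where library totals alone were used, where no filter was applied and without mouse library 1, at -0.02, -0.02 and -0.38.

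MiR-21-3p stayed under that limit, so its level was tested with the wider filter of 10 counts in at least 2 libraries. Its mean was 6.64 ± 2.24 RPM in mouse and 26.9 ± 4.33 RPM with AGO2 (SD, n = 2 each), a ratio of 4.05. The log2 change was 2.19 ± 1.20 (SE; edgeR adjusted p = 0.229), with a 95% interval from -0.40 to 4.78, so it did not pass the test. Of the 501 miRNA tested this way, 67 were called, or 13.4%, and 27.7% had both AGO2 libraries above both mouse libraries, as miR-21-3p did. Without AGO2 library 1 the adjusted p of edgeR was 0.0484, and without AGO2 library 2 it was 0.0163, with the lone AGO2 library then assumed to vary like the mouse libraries.

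For the ratio of 5p over 3p counts, the log2 change with AGO2 against mouse was -1.98 ± 0.56 (SE of the arm by group term in edgeR), with a 95% interval from -3.46 to -0.51. Its unadjusted p was 0.0185 in that model across 156 hairpins, and its adjusted p of 0.137 missed the threshold. The called hairpins were 2 of 156, or 1.28%, both with a lower ratio of 5p over 3p: let-7d, at -10.90 ± 0.76 (SE), and mir-34a, at -6.92 ± 0.82. Without AGO2 library 1 the adjusted p of mir-21 was 0.0215 and 75 hairpins were called, and without AGO2 library 2 it was 0.0145 and 71 were called. Without mouse library 1 or 2, the adjusted p was 0.690 or 0.654 and edgeR called 0 hairpins, with 6 and 8 at an unadjusted p under 0.05; limma called 2 of the 156 with all libraries.

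Over all 156 hairpins the median log2 change of the 5p over 3p ratio with AGO2 was -1.25, towards the 3p strand whether or not it was the less used, and the change of mir-21 was the 56th lowest. The share of the strand that was less used in mouse moved both ways. Among the 138 hairpins with counts in all 4 libraries, it was higher in both AGO2 libraries than in both mouse libraries for 49, or 35.5%, with mir-21 among them, and lower in both for 35, or 25.4%. The median share of that strand was 2.25% in mouse and 4.53% with AGO2. In mouse, mir-21 had the 16th lowest share of these 138 hairpins, and with AGO2 the 29th lowest.

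The hairpins nearest to mir-21 in the balance of their arms in mouse varied more than it did between the AGO2 libraries, but they also had fewer counts. In the AGO2 library with the fewest counts for each hairpin, mir-21 had 40310. The neighbours had from 169 (mir-98) to 13518 (let-7i). In mouse, the 5p share of mir-21 averaged 99.93% and was the 7th highest of 154 hairpins. Just above it, the 3p share of mir-190a went from 0.0792% and 0.0346% in mouse to 1.25% and 15.0% in the AGO2 libraries. That of let-7i went from 0.0479% and 0.0539% to 0.894% and 5.14%, and that of mir-34a from 0.0271% and 0.0494% to 5.36% and 3.57%. All 3 were higher in both AGO2 libraries than in both mouse libraries, and for let-7i and mir-190a the AGO2 libraries stood far apart. Just below mir-21, the 3p share of mir-98 was 0.0332% and 0.117% in mouse and 0.00% and 5.99% with AGO2, where it had as few as 169 counts. The share of mir-497 was 0.155% and 0.260% in mouse and 0.425% and 4.33% with AGO2, and that of mir-18a was 0.334% and 0.145% against 0.281% and 0.745%. Of these 6 neighbours, only mir-34a passed the test of the arm ratio.

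**Figure D3:**
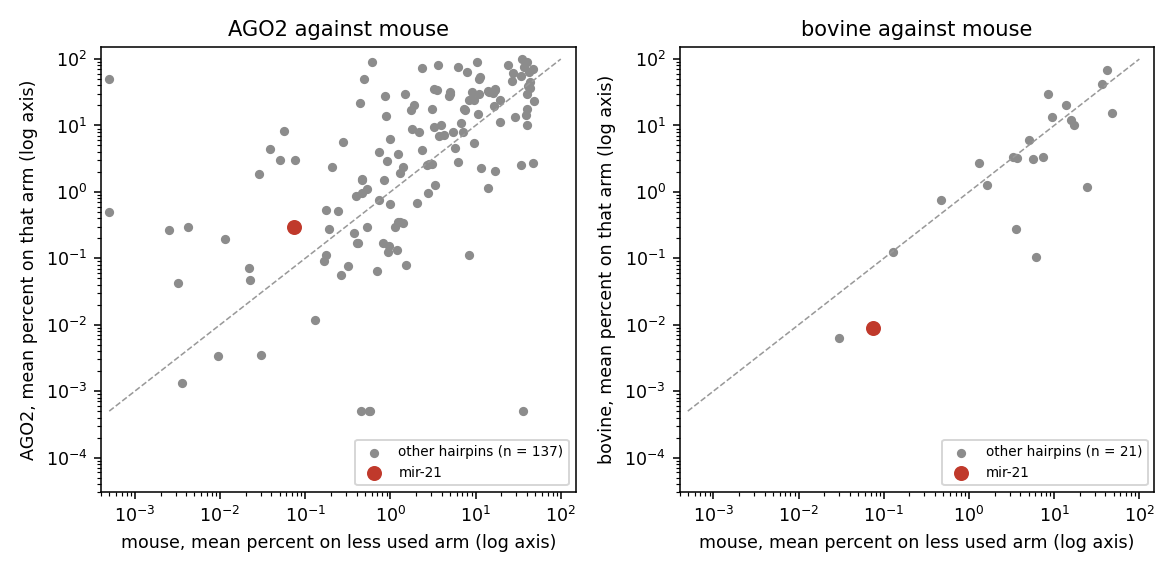
Mean percent of hairpin counts on the arm that was less used in mouse, in mouse (horizontal) against AGO2 (left) or bovine (right) libraries, on log axes. Each point is a hairpin with at least 10 counts on each arm in at least 1 library and counts in all 4 libraries, the dashed line marks equal shares and shares of 0 are drawn at 0.0005%; mir-21 (red) lies above the line for AGO2 and below it for bovine libraries.

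Comparing bovine with mouse glands asks how far the miRNA of lactation are alike in both species. This comparison used the same 2 mouse libraries as the comparison with AGO2. The level of miR-21-5p was higher in cow, at 52231 ± 11077 RPM against 9364 ± 4881 RPM in mouse (SD, n = 2 each), a ratio of 5.58. Its log2 change in edgeR with TMM normalisation was 1.98 ± 0.39 (SE; adjusted p = 0.00128), with a 95% interval from 1.12 to 2.84. It passed the test under each of the 11 alternatives, with values between 1.34 without mouse library 1 and 2.49 with library totals alone. Library totals also moved the median change of all matched miRNA from 0.02 to 0.57. Of the 235 matched miRNA tested, 144 were called, or 61.3%, and 72, or 30.6%, were called higher in cow. For 52.8% both bovine libraries lay above both mouse libraries.

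The passenger strand was not higher in cow. Its mean was 4.46 ± 0.31 RPM in cow and 6.64 ± 2.24 RPM in mouse (SD, n = 2 each), a ratio of 0.672. The log2 change was -1.09 ± 0.60 (SE; edgeR adjusted p = 0.130), with a 95% interval from -2.40 to 0.22. Both bovine libraries were below both mouse libraries, as for 32.8% of the miRNA tested. Without mouse library 1 the change was -1.57 and the adjusted p 0.00807, and in the other 9 alternatives that held the 3p strand it did not pass the test.

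The balance of the counted arms differed between the bovine and mouse libraries. The entries of the arms were not annotated alike in both species, and the effect of this was not tested. The 3p strand had 44 and 45 counts in cow and 47 and 69 in mouse. The log2 ratio of 5p over 3p counts was 13.50 ± 0.41 in cow and 10.40 ± 0.29 in mouse (SD, n = 2 each). In the test below, edgeR's SE, interval and p rest on a spread pooled over the tested hairpins, not on mir-21 alone. The ratio of 5p over 3p counts was higher in cow by 3.10 ± 0.38 on the log2 scale (SE; adjusted p = 4.4e-09 in edgeR but 0.00031 in limma), with a 95% interval from 2.34 to 3.86 in edgeR. It passed the test under each of the 6 alternatives that held mir-21, with values from 2.81 to 3.39. Hairpins with both arms matched in both species were few: 22 were tested, and 8, or 36.4%, were called, of which 3 had a higher and 5 a lower ratio in cow. The change of mir-21 was the 3rd highest, after mir-193a at 5.76 ± 0.93 (SE) and mir-362 at 3.62 ± 0.85, which were the other hairpins called with a higher ratio. The median change of the 22 was 0.05. The share of the strand less used in mouse was lower in both bovine libraries than in both mouse libraries for 8 of the 22, also 36.4%, and higher in both for 3, or 13.6%.

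In mouse, mir-21 had the highest 5p share of these 22 hairpins, so there was none above it to set beside it. Those just below were mir-99a, mir-503 and mir-362. The 3p share of mir-99a was 0.255% and 0.682% in mouse and 0.867% and 0.619% in cow, and that of mir-503 was 2.21% and 0.394% in mouse and 2.17% and 3.32% in cow. In both the libraries of the species overlapped, and neither hairpin passed the test. For mir-362 the 3p share was 2.20% and 4.88% in mouse and 0.236% and 0.316% in cow, where it passed.

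**Figure D4:**
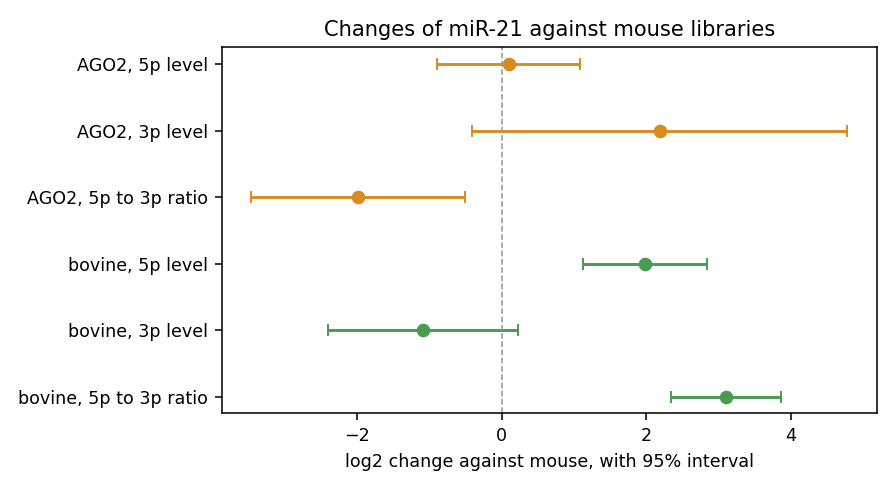
Log2 changes of miR-21 against the mouse libraries, with edgeR's 95% intervals, for the level of each strand and for the ratio of 5p over 3p counts. AGO2 and bovine libraries are compared with the same 2 mouse libraries; the intervals of the bovine 5p level (1.12 to 2.84), of the bovine ratio (2.34 to 3.86) and of the AGO2 ratio (-3.46 to -0.51) do not include 0, and the last did not pass after adjustment.

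Summed levels of cell type markers also moved between some of these groups. The endothelial sums with AGO2 lay within the range of mouse, and the stromal sums of cow and mouse overlapped. The summed level of the 2 endothelial markers (both arms of miR-126) ranged from 24194 to 34265 RPM in mouse, from 28819 to 29280 RPM with AGO2 and from 55972 to 62356 RPM in cow. The 6 epithelial markers ranged from 159803 to 188746 RPM in mouse, from 338037 to 368284 RPM with AGO2 and from 77607 to 79458 RPM in cow. Most of the epithelial sum with AGO2 was miR-200a-3p. In cow, edgeR called miR-200a-3p, miR-200b-3p, miR-141-3p and miR-429-3p lower (log2 change -3.36, -1.60, -1.26 and -3.23). Against the sum, miR-205-5p was called higher in cow (1.92), and miR-200c-3p was not called (0.68). The 5 stromal markers ranged from 54443 to 71185 RPM in mouse, from 35114 to 37249 RPM with AGO2 and from 63691 to 78041 RPM in cow. The 5 leukocyte markers, with miR-223-3p and miR-142, ranged from 1263 to 2123 RPM, from 2351 to 2971 RPM and from 2553 to 3285 RPM in the same order. The 3 erythroid markers ranged from 6504 to 13343 RPM, from 15527 to 32468 RPM and from 1098 to 1709 RPM, and the 3 skeletal muscle markers from 163 to 213 RPM, from 27.9 to 70.2 RPM and from 727 to 782 RPM. Every marker had counts in every library except 1 muscle marker in mouse library 2. The leukocyte markers did not move together in cow. MiR-150-5p and miR-155-5p were called higher in the edgeR test of levels (log2 change 2.19 and 1.95). MiR-142-3p and miR-223-3p were called lower (-1.78 and -1.90), and miR-142-5p was not called (-0.01). In the same test neither arm of miR-126 was called (0.38 for 3p and 0.66 for 5p). Of the stromal markers miR-145a-5p was called higher (1.08), and the others were not called (-0.57 to 0.59). Of the erythroid markers miR-144-3p and miR-451a-5p were called lower (-6.76 and -3.47), but not miR-486-5p (-0.91). Of the muscle markers miR-1a-3p was called higher (1.49), but not miR-133a-3p (0.95). The part of these markers in the differences of miR-21 was not tested. Between cow and mouse, fewer cells of a type and less RNA per cell cannot be told apart in such tissue samples. With AGO2 the markers were counted in pulled-down RNA, so their sums there do not measure the cells of the gland.

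In AGO2 libraries miR-200a-3p alone took 26.8% and 25.6% of the counts, against 7.54% and 11.8% in the mouse and 1.39% and 1.31% in the bovine libraries. With miR-200a-3p left out of the total, miR-21-5p was at 12457 ± 2244 RPM with AGO2 and 10466 ± 5758 RPM in mouse (SD, n = 2 each), and miR-21-3p was at 36.4 ± 6.28 RPM and 7.40 ± 2.73 RPM. The share of the arms is the same with either total.

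The miRNA whose pattern over the 6 libraries was most like that of miR-21-5p also stood higher in cow. Likeness was the Euclidean distance between log2(RPM + 1) values, each centred on its own mean, among 161 other matched miRNA at 100 RPM or more in at least 1 library. The nearest were miR-205-5p (distance 1.20), miR-186-5p (1.33), miR-100-5p (1.34), miR-26a-5p (1.38) and miR-369-3p (1.46), against a median distance of 3.47. MiR-205-5p, a miRNA of basal epithelial cells, was at 915 and 626 RPM in mouse, 942 and 717 RPM with AGO2, and 4096 and 4427 RPM in cow. MiR-26a-5p was at 24422 and 27363 RPM in mouse, 17573 and 13013 RPM with AGO2, and 66943 and 72194 RPM in cow, above miR-21-5p in every library. The nearest miRNA differed from it, and among themselves, between the mouse libraries. Mouse library 2, where miR-21-5p was the higher, was the lower for miR-205-5p and for miR-100-5p, at 225 and 161 RPM. It was the higher for miR-26a-5p, for miR-186-5p, at 777 and 1033 RPM, and for miR-369-3p, at 9.68 and 30.1 RPM. These miRNA were chosen for their likeness, so the values are a description.

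**Figure D5:**
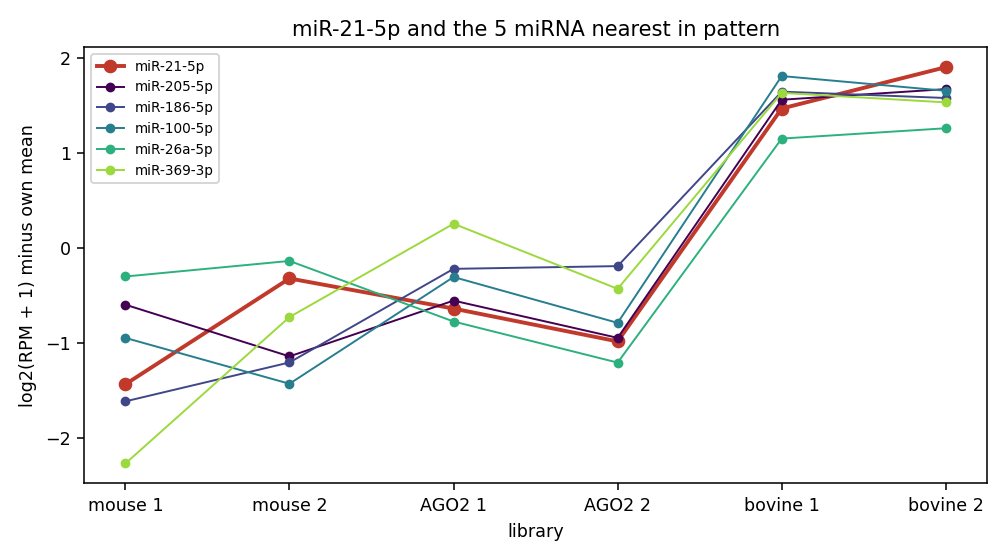
Log2(RPM + 1) of miR-21-5p (red) and of the 5 miRNA nearest to it in pattern, each minus its own mean over the 6 libraries (vertical axis), by library (horizontal axis). Each line is a miRNA; all 6 have their highest values in the bovine libraries, where miR-21-5p was at 44399 and 60064 RPM.

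Other miRNA known to be induced by inflammation, hypoxia or growth signals, as miR-21 is, were set beside it: both arms of mir-146a, mir-146b, mir-155, mir-181b, mir-221, mir-222, mir-132, mir-210 and mir-31, with 18 entries in the mouse list. With AGO2, 12 were tested, 0 were called higher and 3 lower, beside 46 higher (15.4%) and 37 lower (12.4%) of all 299 tested. These were miR-31-5p (log2 change -2.85 ± 0.67, SE; edgeR adjusted p = 0.00328), miR-210-3p, the classic hypoxia miRNA (-1.94 ± 0.57; edgeR adjusted p = 0.0141), and miR-181b-5p (-1.28 ± 0.47; edgeR adjusted p = 0.0496). Under the wider filter miR-181b-5p did not pass (-1.31; edgeR adjusted p = 0.0840), which left 2 called lower of 15 tested. The median change of the 12 was -0.97, beside -0.12 over all 299 tested.

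In cow, 9 of these miRNA were matched and tested, of which 1 was called higher and 5 lower, beside 72 higher and 72 lower (30.6% each) of all 235 tested. The higher was miR-155-5p, a miRNA of activated lymphoid and myeloid cells (1.95 ± 0.44, SE; edgeR adjusted p = 0.00288), beside 1.98 ± 0.39 for miR-21-5p. The lower were miR-146b-5p (-7.74 ± 0.52; edgeR adjusted p = 3.6e-06), miR-181b-5p (-3.63 ± 0.42), miR-210-3p (-3.39 ± 0.46), and miR-221-3p and miR-222-3p, which come from neighbouring hairpins (-2.37 ± 0.39 and -2.29 ± 0.46). The median change of the 9 was -2.29, beside 0.02 over all 235 tested.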

How the data were processed

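Small RNA libraries made by poly(A) tailing were sequenced by the authors, who trimmed the poly-A tails. Reads between 17 and 28 nt long were assigned by the authors with miRDeep2, against miRBase 20 and precursors it predicted, with genome builds GRCm38 and UMD3.1 (per the labels). Removal of poly-A also takes any A at the 3′ end of a strand, such as the last base of mmu-miR-21a-5p, and its effect on read length and assignment was not tested. The deposited values used were raw read counts per mature miRNA; the scaled copies and the prediction lists were not used. Names without an arm took it from the predicted position in the same list. Total counts per library were 3909166 to 10613807. RPM divide by these totals.

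Levels were tested with edgeR 4.0.16 (R 4.3.3; quasi-likelihood, TMM, Benjamini-Hochberg adjusted p under 0.05), over miRNA with more than 175 counts in at least 1 library (AGO2) or at least 10 counts in at least 2 (bovine). Species were matched through the 251 name pairs listed by the study. Arm ratios were tested as the interaction of arm and group, with 1 term per library and at least 10 counts on each arm. SE is the log2 change over the square root of F, and intervals are exact (Poisson, Clopper-Pearson) or from edgeR's t quantile. Alternatives used DESeq2 1.42.0, limma 3.58.1 (on log2 ratios with 0.5 added to each count), other scalings and filters, and 1 library left out; the alternatives for the level of miR-21-3p with AGO2 other than the filters were chosen after seeing the data. The code was run on simulated data as a check. The simulated arm shares stopped short of those of mir-21 in the mouse and bovine libraries, so the case of mir-21 was not covered. Exact permutation of 2 against 2 libraries cannot go below p = 0.333, so none is given. By the study's text, the AGO2 libraries came from separate mice and the bovine libraries from separate pairs of cows. For the mouse libraries it gives 2 mice and 2 libraries, without tying each library to a mouse. The source of the spread between the mouse libraries was not tested.

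The text names the members, miRNA sharing their seeds, mir-21b, the 5 nearest patterns, 3 hairpins on each side of mir-21 in arm balance (with counts in both mouse libraries) and the inducible miRNA that passed the test; let-7d, mir-193a and the miRNA used as markers (epithelial, endothelial, stromal, leukocyte, erythroid, muscle) are named besides, let-7d and mir-193a after their values were seen. Members and lists were chosen with earlier results of these data known. MiR-21c was not analysed here.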

Additional observations from a re-analysis of the deposited data

How the results depend on the processing

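The higher level of miR-21-5p in cow and the higher ratio of its arms in cow passed the test under every alternative that could be run for them (11 and 6). These results are not independent of each other, since the ratio holds the 5p counts of the same libraries. The change of miR-21-5p with AGO2 passed under none; its sign turned with library totals alone (-0.023) and with no filter (-0.017), and with 1 library left out it ran from -0.38 to 0.77. With 1 library left out, the change of miR-21-3p with AGO2 ran from 1.76 to 2.38, that in cow from -1.57 to -0.87, and that of the arm ratio with AGO2 from -2.19 to -1.77. These 3 passed the test without either AGO2 library, without mouse library 1, and without either AGO2 library, in that order, and not otherwise.

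With 1 library left out, level calls ranged from 52 to 85 with AGO2 (83 with all) and from 59 to 172 in cow (144 with all), and arm ratio calls from 0 to 75 with AGO2 (2) and from 1 to 9 in cow (8). Asking for 100 RPM gave 88 level calls in cow, with 152 miRNA tested, and mir-21-3p was then not tested. At least 1 count on each arm gave 15 arm ratio calls with AGO2, among 343 hairpins; at least 100 left mir-21 out of the bovine test. DESeq2 called 117 and 146 in the level tests. Leaving miR-200a-3p out of the total put the 5p and 3p strands at 12457 and 36.4 RPM with AGO2. The cause of these shifts was not tested, beyond the change in the numbers tested. The mouse and AGO2 groups shared animals by the study's text, but the tests treated their libraries as independent. No paired analysis was possible because the labels carry no number or animal that ties libraries of different groups. The low counts of the 3p strand, at most 120, limit every ratio of the arms.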
